A study of Mus musculus with 12 samples.

Results

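The miR-26 family of the mouse comprises the miRNAs cut from the hairpins Mir26a-1, Mir26a-2 and Mir26b, each of which lies inside a gene of the Ctdsp group. Its members were the 4 rows mmu-miR-26a-5p, mmu-miR-26b-5p, mmu-miR-26a-2-3p and mmu-miR-26b-3p, chosen by name from a table of raw counts for 1929 mature miRNAs. The remaining arm of the family, mmu-miR-26a-1-3p, was not one of the named members and is described beside them. The values come from small RNA of C57BL/6 mouse livers in 2 groups of 6 libraries. Mice of the PZH group received Pien Tze Huang, a traditional Chinese medicine, daily by the intragastric route. Mice of the water group received double distilled water by the same route. All mice of both groups also had intraperitoneal injections of CCl4 (carbon tetrachloride), a toxin used to model hepatic fibrosis, and no healthy mice were compared. The sources used here do not give the dose of PZH, the length of treatment, or the sex and age of the mice. The labels number the liver samples but do not state that each came from its own mouse, so p-values measure the spread between these samples.

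A miRNA guides an Argonaute protein to messenger RNAs that pair with its seed, the stretch of bases near its 5′ end. Of the arms cut from a hairpin, one is usually retained as the guide and its partner is mostly degraded. For miR-26 the 5p arm is the guide. It is known as a restraint on growth, is reported to repress the histone methyltransferase EZH2 and cell cycle genes, and is reported as lowered in human liver cancer. The host genes encode small phosphatases of the C-terminal domain of RNA polymerase II, and in zebrafish miR-26b is reported to repress the message of its own host, ctdsp2. The messages of the host genes were not measured here.

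The mature sequences of all 5 arms are printed because the seed divides the family into its guide and partner arms. They are RefSeq sequences from the GRCm38.p6 assembly, written 5′ to 3′, and the capitals mark the seed, bases 2 to 8.
miR-26a-5p: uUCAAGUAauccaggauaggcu
miR-26b-5p: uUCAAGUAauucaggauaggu
miR-26a-2-3p: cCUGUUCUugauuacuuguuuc
miR-26b-3p: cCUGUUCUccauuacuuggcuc
miR-26a-1-3p: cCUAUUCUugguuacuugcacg

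The seed UCAAGUA was held by 2 mature mouse miRNAs in that table, miR-26a-5p and miR-26b-5p. With positions counted from 1 at the 5′ end, the shared length of these arms differed at C11U and C21U, the base of miR-26a-5p given first, and miR-26b-5p was 1 base shorter. The seed CUGUUCU was held by 4 mature miRNAs, which are miR-26a-2-3p, miR-26b-3p, miR-6932-3p and miR-7039-3p. The last pair averaged 0.388 and 0.249 CPM (counts scaled to a fixed library total of 1000000) over the 12 libraries and did not pass the filter on low counts. miR-26a-1-3p differed from miR-26a-2-3p at 6 positions, G4A, A11G, U19C, U20A, U21C and C22G, with the base of miR-26a-2-3p first. The change G4A lies in the seed, and its seed CUAUUCU was held by 1 mature miRNA, itself.

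The hairpins are shown because Mir26a-1 and Mir26a-2 give the same 5p arm and different 3p arms. The capitals mark the mature arms.
Mir26a-1: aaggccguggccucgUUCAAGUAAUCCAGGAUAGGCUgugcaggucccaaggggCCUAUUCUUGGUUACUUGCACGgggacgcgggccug
Mir26a-2: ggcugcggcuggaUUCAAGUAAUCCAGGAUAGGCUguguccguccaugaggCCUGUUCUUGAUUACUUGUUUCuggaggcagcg
Mir26b: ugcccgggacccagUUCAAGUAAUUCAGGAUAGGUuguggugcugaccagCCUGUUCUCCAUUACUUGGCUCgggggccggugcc

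A count of miR-26a-5p therefore cannot be assigned to 1 of its 2 hairpins, whereas the 3p arms can tell them apart. On GRCm38 all 3 hairpins lie on the plus strand, the strand of their protein-coding host. Mir26a-1 lies at chr9:119031796-119031885 in intron 5 of 7 of Ctdspl, 1543 bases from the start of the intron. Mir26a-2 lies at chr10:126995530-126995613 in intron 5 of 7 of Ctdsp2, 241 bases from the end of the intron. Mir26b lies at chr1:74394310-74394394 in intron 4 of 6 of Ctdsp1, with 234 bases of intron before it and 245 after it. Intron numbers are those of the principal coding transcript in GENCODE M21. The predicted minimum free energies of folding were -49.4 kcal/mol for Mir26a-1, -44.5 for Mir26a-2 and -43.5 for Mir26b. In these predicted folds 18, 17 and 17 bases of the 5p arm paired with the 3p arm, in the same order of hairpins.

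Total counts ranged over 6065480 to 10436478 in PZH libraries and 4961913 to 20211784 in water libraries. Levels are CPM after TMM scaling, a correction for library composition, with scaling factors of 0.936 to 1.077. The miRNA that defines hepatocytes, miR-122-5p, averaged 107905 ± 13911 CPM in PZH livers and 104137 ± 8000 CPM in water livers (SD, n = 6 each). In bulk liver, fewer cells of a type and less RNA per cell cannot be told apart.

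The guide arms were among the most abundant miRNAs of these livers. miR-26a-5p ranked between 7 and 9 in every library, and miR-26b-5p between 11 and 15. The 3p arms stood far lower, with miR-26b-3p between ranks 195 and 220 and miR-26a-2-3p between ranks 313 and 348. No member differed between PZH and water at a Benjamini-Hochberg adjusted p under 0.05. In the quasi-likelihood test of edgeR, fitted over all 607 miRNAs that passed the filter, 0 of the 4 members were called, against 21.3% of all tested miRNAs (60 higher and 69 lower in PZH). DESeq2 and limma-voom also called 0 members. At an unadjusted p under 0.05 edgeR and limma-voom found 0, and DESeq2 found 1, miR-26a-2-3p, with a log2 fold change of 0.31 (DESeq2 adjusted p = 0.175). Over all tested miRNAs the log2 fold change had a median of -0.03.

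**Figure D1:**
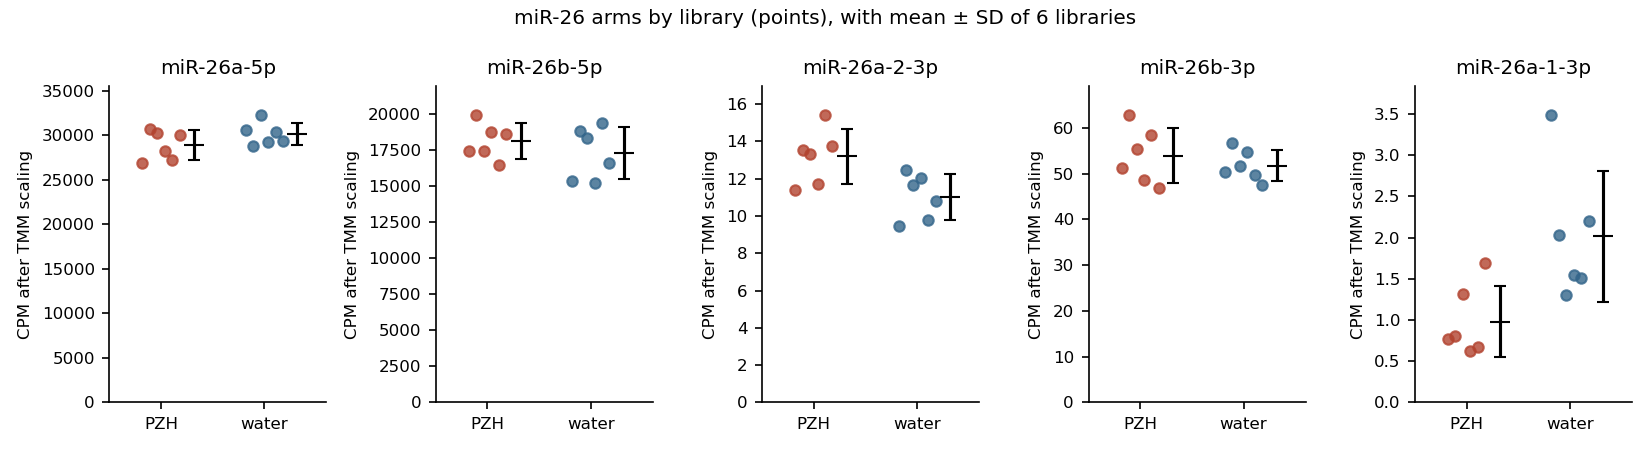
Level of each miR-26 arm in every library, in CPM after TMM scaling on a linear axis, with PZH libraries left of water libraries and bars for the mean ± SD of 6 libraries. The groups overlap in all 5 panels. Of the 6 PZH points, 3 lie below every water point for miR-26a-5p and 4 for miR-26a-1-3p, and 4 lie above every water point for miR-26a-2-3p.

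The main guide arm, miR-26a-5p, had 26914 CPM at the lowest, 29144 at the median and 30704 at the highest in PZH libraries, against 28833, 29875 and 32304 CPM in water libraries. The groups overlapped, with 3 of 6 PZH libraries below every water library. Its means were 28911 ± 1642 CPM in PZH and 30115 ± 1260 CPM in water (SD, n = 6 each), a log2 fold change of -0.06 (SE 0.06, edgeR adjusted p = 0.558). These levels rest on 147184 to 553434 counts per library.

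The guide arm of the Ctdsp1 hairpin, miR-26b-5p, had a lowest, median and highest level of 16522.5, 18066.5 and 19980.1 CPM in PZH libraries, against 15215, 17513 and 19431 CPM in water libraries. The water libraries covered the wider range, and 1 PZH library stood above all of them. Its means were 18149 ± 1237 CPM in PZH and 17310 ± 1822 CPM in water, a log2 fold change of 0.07 (SE 0.08, edgeR adjusted p = 0.627).

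The partner arm miR-26a-2-3p, which reports on the Ctdsp2 hairpin alone, had 11.4, 13.4 and 15.4 CPM in PZH libraries, against 9.45, 11.2 and 12.5 CPM in water libraries (lowest, median and highest). All 6 PZH libraries were above the water median and 4 of them were above every water library. Its means were 13.2 ± 1.47 CPM in PZH and 11.02 ± 1.24 CPM in water, a log2 fold change of 0.26 (SE 0.13) that was not called (edgeR adjusted p = 0.184). It rests on 54 to 239 counts per library. In the library with 54 counts, a water library, the exact 95% binomial interval of its level, in CPM of the library total, was 8.18 to 14.2, which is wider than the range of the 6 water libraries. Intervals cover the counting error of reads only, not the spread between libraries. The reads carry no molecular identifiers, so copies made by amplification are not told apart.

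The partner arm miR-26b-3p had 47.0, 53.3 and 62.8 CPM in PZH libraries, against 47.5, 50.9 and 56.7 CPM in water libraries (lowest, median and highest). The PZH libraries reached past the water libraries at both ends. Its means were 53.9 ± 6.08 CPM in PZH and 51.7 ± 3.38 CPM in water, a log2 fold change of 0.06 (SE 0.10, edgeR adjusted p = 0.793).

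The unlisted arm miR-26a-1-3p, which reports on the Ctdspl hairpin alone, was the rarest of the family and lower in PZH. It had 5, 7, 14, 6, 6 and 14 counts in PZH libraries 1 to 6, against 51, 39, 10, 14, 17 and 11 counts in water libraries 1 to 6. After scaling these were 0.623 CPM at the lowest, 0.790 at the median and 1.69 at the highest in PZH, against 1.31, 1.79 and 3.49 CPM in water. All 6 PZH libraries were below the water median and 4 were below every water library. Its means were 0.981 ± 0.427 CPM in PZH and 2.01 ± 0.798 CPM in water (SD, n = 6 each), a log2 fold change of -1.04 (SE 0.34, edgeR adjusted p = 0.0409). The filter asks for 1.097 CPM in 6 libraries, which all 6 water libraries and 2 PZH libraries reached, so this arm was tested only through the group in which it was high. The call ended in 12 of the 19 alternatives that gave it a value, over which the adjusted p ranged from 0.0265 to 0.186. Among them were DESeq2 (adjusted p = 0.0935), the test with no filter (adjusted p = 0.186) and the removal of any 1 of PZH libraries 1 to 5 or water libraries 1, 2, 4 or 6. Without water library 1, which had the most counts, the log2 fold change was -0.80 (adjusted p = 0.135). Of the 144 tested miRNAs with a mean under 3 CPM, 12.5% were called, 8 higher and 10 lower in PZH.

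**Figure D2:**
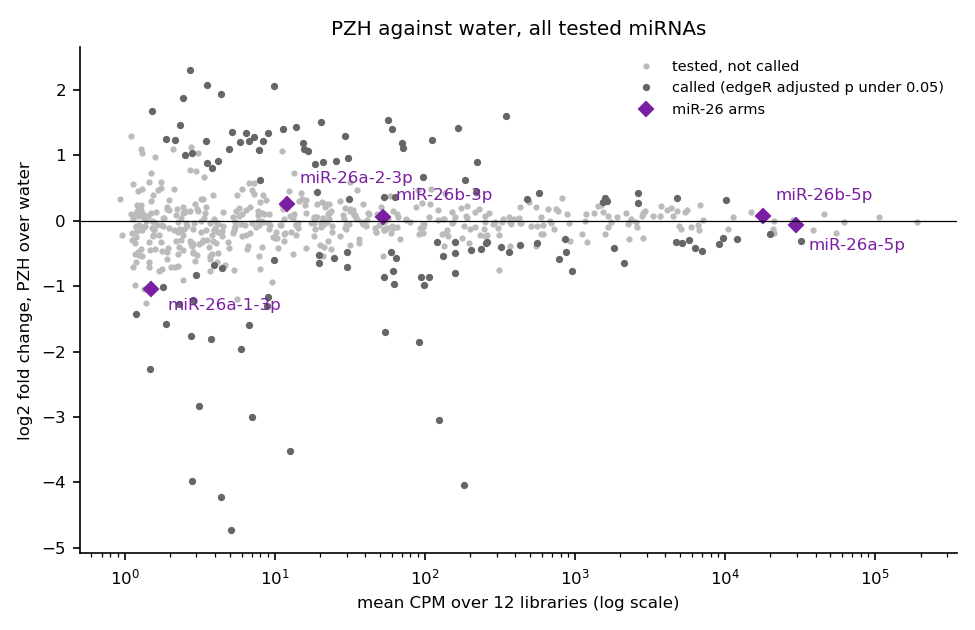
Log2 fold change, PZH over water, against the mean CPM over 12 libraries on a log axis, for the 607 tested miRNAs (points) with the miR-26 arms marked as diamonds. The 5p arms lie at the abundant end within 0.07 of 0, and miR-26a-1-3p lies at the scarce end at -1.04.

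A ratio between miRNAs of a library does not depend on how libraries are scaled to each other. A share of the library total amounts to scaling by total counts, and so moves with the other miRNAs. A pseudocount added to low counts brings in some dependence on library depth. Such ratios and a share, 3 values per library, were compared by exact permutation tests (two-sided, all 924 ways to divide the libraries into groups). Their smallest possible p is 0.00216. The first set the guide arms against each other. miR-26a-5p had 1.54, 1.54, 1.74, 1.504, 1.65 and 1.61 times the counts of miR-26b-5p in PZH libraries 1 to 6, against 1.99, 1.53, 1.76, 1.92, 1.56 and 1.76 times in water libraries 1 to 6. The water libraries were the more scattered, and 4 of them exceeded every PZH library. The log2 ratio was 0.67 ± 0.08 in PZH and 0.80 ± 0.15 in water (SD, n = 6 each), a difference of -0.13 that did not pass the test (exact permutation p = 0.0909, adjusted over the 3 tests p = 0.136). miR-26a-5p made up 61.4% ± 1.27 of the counts of both guide arms in PZH and 63.6% ± 2.46 in water. Without water library 2 the difference was -0.17 (unadjusted exact permutation p = 0.0303), and without water library 5 the unadjusted exact p was 0.0411.

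The second gave the weight of the guide arms in the whole profile. Together they held 4.78% ± 0.226 of all counts in PZH livers and 4.67% ± 0.277 in water livers (SD, n = 6 each). The difference of 0.105 percentage points was smaller than either SD (exact permutation p = 0.494, adjusted p = 0.494). Single libraries moved it: it was 0.0237 points without PZH library 2, 0.0279 without water library 4 and 0.187 without water library 5. The 95% Wilson interval of the share in a library reached at most 0.0185 percentage points from its value, so counting error was small beside the spread between libraries.

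The third set the 3p arms of the 2 miR-26a hairpins against each other. miR-26a-1-3p made up 6.86% ± 2.59 of the counts of these 2 arms in PZH livers and 15.5% ± 6.11 in water livers (SD, n = 6 each). Summed over libraries, miR-26a-1-3p had 52 counts in PZH and 142 in water, whereas miR-26a-2-3p had 696 counts in PZH and 739 in water. The log2 ratio with a pseudocount of 1 was -3.67 ± 0.51 in PZH and -2.46 ± 0.58 in water, and 5 of 6 PZH libraries lay below every water library. The difference was -1.22 (exact permutation p = 0.00433, adjusted p = 0.0130). This ratio rests on 5 to 14 counts of miR-26a-1-3p per PZH library, and the arm passed the filter on low counts only through the water group. It uses the same counts as the fold change above, whose call ended in 12 of 19 alternatives, and gives that change no separate support.

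**Figure D3:**
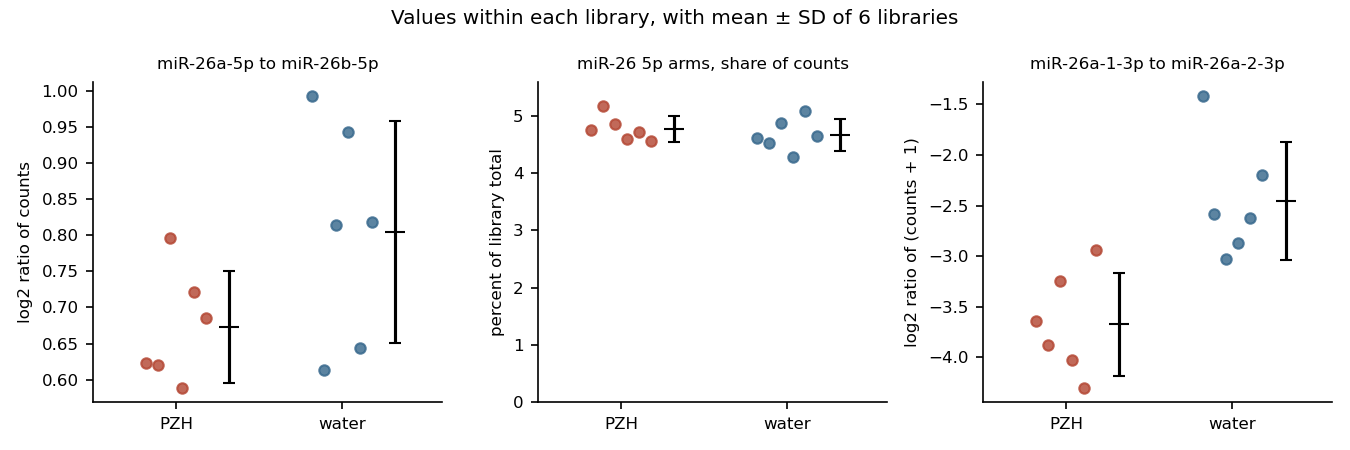
Values computed within each library, PZH left of water, with bars for the mean ± SD of 6 libraries: log2 ratio of miR-26a-5p to miR-26b-5p counts, percent of the library total held by both 5p arms (axis from 0), and log2 ratio of miR-26a-1-3p to miR-26a-2-3p counts with 1 added to each. In the right panel 5 of 6 PZH points lie below every water point, and in the other panels the groups overlap.

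The guide arms outnumbered their partners by wide margins. Over both groups the geometric mean ratio of miR-26a-5p to miR-26a-2-3p was 2434-fold (log2 11.25), and 2 of the 136 hairpins with both arms at a mean of at least 20 counts were more lopsided towards the 5p arm, those of miR-99a and let-7g. Counts of miR-26a-5p come from 2 hairpins and those of miR-26a-2-3p from 1, so this ratio is not that of a single hairpin. The ratio of miR-26b-5p to miR-26b-3p, which do come from 1 hairpin, was 335-fold (log2 8.39), with 15 of 136 hairpins more lopsided. The median hairpin had a log2 ratio of 2.04.

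Neither arm ratio of the family was called between PZH and water. In limma, with adjustment over all 136 hairpins, 10.3% of arm ratios were called. The log2 ratio of miR-26a-5p to miR-26a-2-3p was 11.09 ± 0.16 in PZH and 11.41 ± 0.19 in water (SD, n = 6 each), a difference of -0.32 (SE 0.12, limma adjusted p = 0.098). In 4 of 6 PZH libraries it was below every water library. Without PZH library 5, where it was 10.78, the difference was -0.26 (limma adjusted p = 0.181). The ratio of miR-26b-5p to miR-26b-3p was 8.40 ± 0.19 in PZH and 8.38 ± 0.17 in water, a difference of 0.02 (SE 0.12, limma adjusted p = 0.968), and its groups overlapped.

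**Figure D4:**
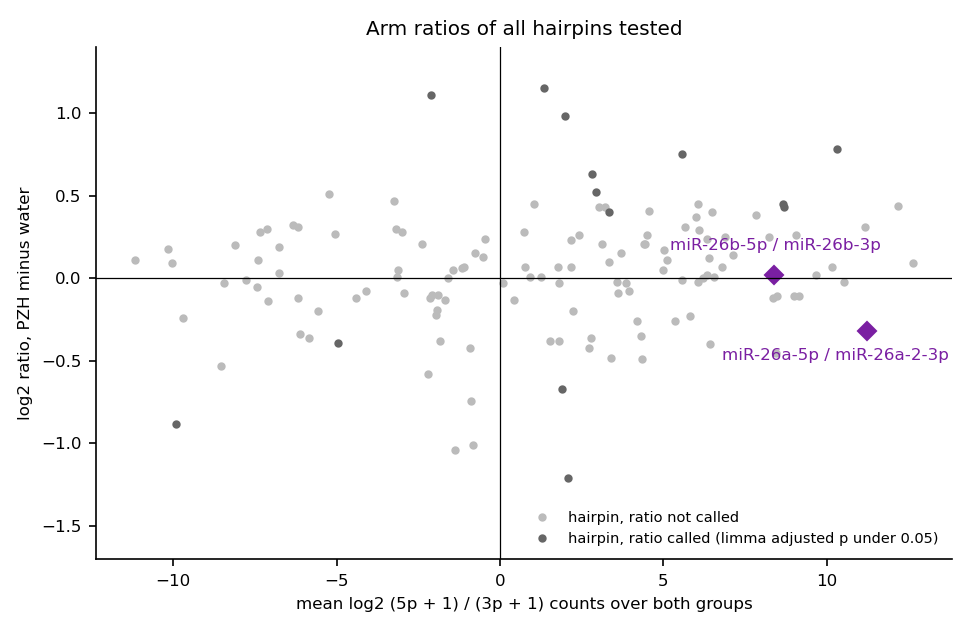
Difference in the log2 5p to 3p arm ratio, PZH minus water, against the mean log2 arm ratio over both groups, for 136 hairpins, with called hairpins in dark grey and the miR-26 ratios as diamonds. The miR-26 ratios lie at the right, at 11.25 and 8.39 on the horizontal axis, with differences of -0.32 and 0.02.

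miR-26a-5p was one of the steadiest miRNAs of these livers. The pooled SD of its log2 CPM within groups was 0.072, and 3 of the 607 tested miRNAs had a lower one, miR-23b-3p, miR-744-5p and miR-23a-3p. The median over tested miRNAs was 0.33, and over the 75 miRNAs at 1000 CPM or more it was 0.16. miR-26b-5p, with an SD of 0.13, had 22 of those 75 abundant miRNAs below it. The SDs of miR-26b-3p, miR-26a-2-3p and miR-26a-1-3p were 0.13, 0.16 and 0.47, with the highest in the arm with the fewest counts.

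**Figure D5:**
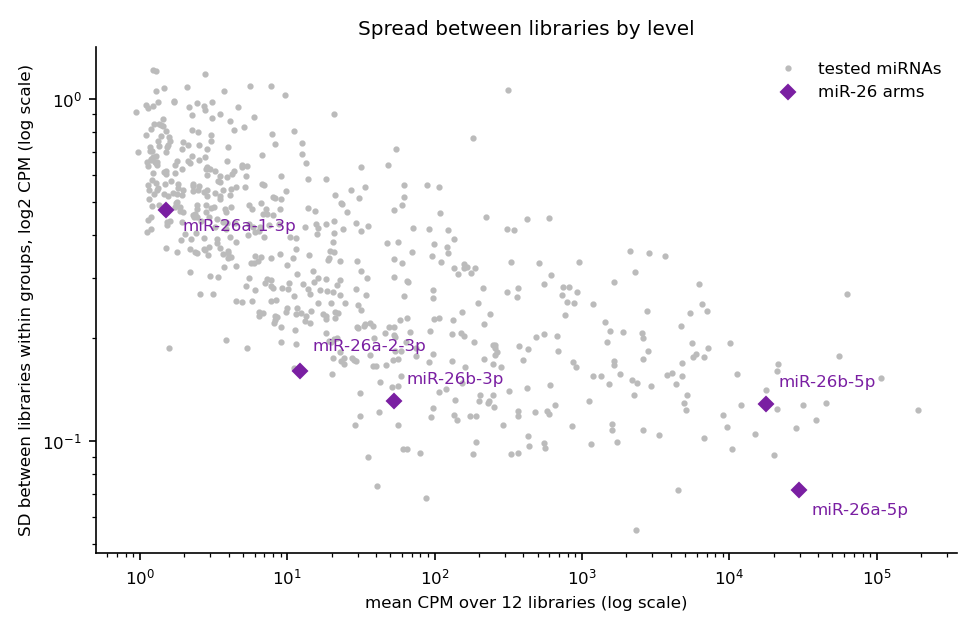
SD of log2 CPM between libraries within groups against the mean CPM over 12 libraries, both on log axes, for the 607 tested miRNAs with the miR-26 arms as diamonds. miR-26a-5p lies at 0.072, near the lower edge of the points, and miR-26a-1-3p at 0.47.

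By mean level miR-26a-5p stood between miR-30a-5p and miR-148a-3p. miR-30a-5p had 28352 ± 3341 CPM in PZH and 35172 ± 1473 CPM in water (SD, n = 6 each), so the ranges of mean ± SD of these neighbours overlapped in PZH and not in water. miR-148a-3p, at 28276 ± 2623 CPM in PZH and 28203 ± 1595 CPM in water, overlapped miR-26a-5p in the same way in both groups. miR-26b-5p stood between miR-29a-3p (18541 ± 1435 CPM in PZH and 21414 ± 799 CPM in water) and let-7g-5p (17819 ± 2263 CPM in PZH and 17513 ± 1065 CPM in water). The range of let-7g-5p overlapped that of miR-26b-5p in both groups, and that of miR-29a-3p overlapped it in PZH and not in water. Of these neighbours, miR-30a-5p (log2 fold change -0.31, edgeR adjusted p = 0.00769) and miR-29a-3p (-0.21, edgeR adjusted p = 0.0289) were themselves called lower in PZH. Neither miR-148a-3p nor let-7g-5p was called. CPM levels of different miRNAs carry the ligation and counting biases of the library, so this order is one of counts.

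Likeness across libraries was described by Pearson's r of log2 CPM over the 12 libraries after centring on group means, with libraries shared by all points. The guide arms had r = 0.38 with each other, and the partner arms miR-26a-2-3p and miR-26b-3p had r = 0.56. A guide arm and its own partner had r = 0.01 for miR-26a-5p with miR-26a-2-3p and r = 0.04 for miR-26b-5p with miR-26b-3p. The miRNAs most like miR-26b-5p were miR-130a-5p (r = 0.88), miR-1981-5p (0.77), miR-1839-5p (0.73), miR-671-3p (0.70) and let-7d-5p (0.68), against a median r of 0.02 over all tested miRNAs. Those most like miR-26a-5p were miR-6946-3p (r = 0.70), miR-9-3p (0.68), miR-12191-3p (0.66), miR-574-5p (0.66) and miR-212-5p (0.65), of which the first 4 had means of 1.18 to 3.33 CPM. With another scaling (RLE) of the same counts, 5 of 5 and 4 of 5 of these names remained among the closest 5. The names were picked for the highest r among all tested miRNAs over only 12 libraries. Values far above the median follow from that choice, and no r was tested.

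Other miRNAs reported to repress EZH2 were set beside miR-26. Of 10 such miRNAs, miR-26a-5p and miR-26b-5p included, 8 were tested. In edgeR 0 were called higher and 2 lower in PZH, and the median log2 fold change was 0.09. Over all tested miRNAs 21.3% were called, so 2 of 8 is near the background. The 2 were miR-101b-3p (log2 fold change -0.26, edgeR adjusted p = 0.0159) and miR-101a-3p (-0.30, edgeR adjusted p = 0.0394), which share a family. DESeq2 called 0 of the list lower, with 2 lower at an unadjusted p under 0.05, and 1 higher, miR-98-5p. The call of miR-101a-3p ended in 11 of 20 alternatives and that of miR-101b-3p in 5 of 20. Without PZH library 2, PZH library 5 or water library 4 neither was called, and without PZH library 1 or 3 or water library 1 or 6 miR-101a-3p was not. miR-98-5p, of the let-7 family, had 587 ± 52.5 CPM in PZH and 509 ± 19.8 CPM in water and was not called (log2 fold change 0.21, edgeR adjusted p = 0.0703). It was called higher in 4 of 20 alternatives. These were DESeq2 (adjusted p = 0.0144) and edgeR with RLE scaling (adjusted p = 0.0339) or total counts only (adjusted p = 0.0233). The last was edgeR with a filter of 10 CPM in 6 libraries (adjusted p = 0.00818).

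Of 22 miRNAs reported as lowered in liver cancer, the guide arms of miR-26 included, 7 were called lower in PZH and 0 higher in edgeR, with 1 higher, miR-145a-5p, at an unadjusted p under 0.05. Over all 607 tested miRNAs 21.3% were called, 69 lower and 60 higher. DESeq2 called 4 lower and limma-voom 6, and edgeR called 4 without any 1 of PZH libraries 1, 2 and 5 and water libraries 1, 4 and 6. The median log2 fold change of the list was -0.02. The smallest p belonged to miR-139-5p, which had 172 ± 16.5 CPM in PZH and 233 ± 22.4 CPM in water (SD, n = 6 each), a log2 fold change of -0.44 (edgeR adjusted p = 0.00324), with all 6 PZH libraries below every water library. The groups did not overlap for 61 of all 607 tested miRNAs. The others were miR-223-3p, a myeloid miRNA, miR-375-3p, a miRNA of endocrine and epithelial cells, miR-101a-3p, and miR-29a-3p, miR-29b-3p and miR-29c-3p, which are known to repress collagen genes. Of these, miR-375-3p was scarce and scattered in water, with 9.44 ± 8.72 CPM against 2.42 ± 0.673 CPM in PZH. The 2 guide arms of miR-26 were among the 15 members not called.

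miR-26 shares with a few other families a place in introns of paralogous protein-coding genes. Of 8 miRNAs of this kind, the miR-26 guide arms included, 7 were tested. In edgeR 0 of the 7 were called, against 21.3% of all 607 tested miRNAs, and 0 had an unadjusted p under 0.05. A list of 7 is too short for 0 calls to set it apart from that share. DESeq2 and limma-voom also called 0, and DESeq2 had 1, miR-103-3p, at an unadjusted p under 0.05. Their median log2 fold change was 0.01. miR-33-5p, which in the mouse comes from the gene of a sterol regulatory element binding protein and has a relative in the paralogous gene in human, had -0.31 (edgeR adjusted p = 0.196), and miR-103-3p, from the pantothenate kinase genes, had 0.15.

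Markers of liver cell types were measured in the same libraries, and their part in the values of miR-26 was not tested. In edgeR 0 markers of any list were called higher in PZH. Called lower were 1 of 6 hepatocyte, 1 of 5 leukocyte, 2 of 2 endothelial, 2 of 5 epithelial and biliary and 1 of 1 tested pancreas markers, and 0 of 4 stellate cell and fibroblast, 0 of 3 erythroid and 0 of 2 tested muscle markers, against 21.3% of all tested miRNAs called in either direction. DESeq2 called 1 of the 2 endothelial markers, and otherwise as many of each list as edgeR. limma-voom called 1 endothelial, 0 epithelial and biliary and 0 pancreas markers, with 2 epithelial and biliary and 1 pancreas marker lower at an unadjusted p under 0.05. The markers called in edgeR were miR-802-5p of hepatocytes, miR-223-3p of leukocytes and, for the endothelium, miR-126a-3p and miR-126a-5p, the arms of 1 hairpin. Also called were miR-200c-3p and miR-141-3p of epithelia, and miR-375-3p, here a pancreas marker. Water libraries were widely scattered for miR-200c-3p (82.2 ± 53.1 CPM, against 42.2 ± 9.77 CPM in PZH) and miR-141-3p (137 ± 81.5 CPM, against 75.5 ± 20.9 CPM in PZH). The same held for miR-375-3p (9.44 ± 8.72 CPM, against 2.42 ± 0.673 CPM in PZH). Its log2 fold change was -1.97, and -1.27 without water library 2 (edgeR adjusted p = 0.0123). Of the lists with 0 called, 1 stellate cell marker was higher and 1 erythroid marker lower at an unadjusted p under 0.05 in edgeR, and DESeq2 and limma-voom called 0 of them. The summed level of the hepatocyte list ranged over 202898 to 264104 CPM in PZH and 221357 to 256415 CPM in water, and that of the stellate cell and fibroblast list over 50191 to 87704 CPM in PZH and 60410 to 87877 CPM in water. Most of the stellate cell and fibroblast sum was miR-143-3p (61879 ± 12900 CPM in PZH and 62656 ± 9582 CPM in water). The leukocyte list summed to 3091 to 5513 CPM in PZH and 4147 to 5972 CPM in water, and the endothelial list to 10272 to 13900 CPM in PZH and 12863 to 17096 CPM in water. The epithelial and biliary list summed to 864 to 1246 CPM in PZH and 931 to 2192 CPM in water, the erythroid list to 3144 to 5355 CPM in PZH and 3569 to 5587 CPM in water, the muscle list to 10.7 to 43.1 CPM in PZH and 13.7 to 89.2 CPM in water, and the pancreas list to 3.11 to 6.25 CPM in PZH and 3.37 to 27.9 CPM in water. The ranges of every list overlapped between the groups. Of the markers, miR-206-3p of muscle was at 0 in 1 library, and all others had counts in every library.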

How the data were processed

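Small RNA of 12 liver samples was sequenced from TruSeq Small RNA libraries, per the labels. The authors deposited raw counts per mature miRNA, with no normalization. The submitters' processing notes name cutadapt, FastQC, BWA, DESeq2 and GRCm38, without versions. The sources used here do not give the counting tool, its use of strand or its treatment of reads with several matches, so miR-26a-5p and miR-26b-5p may share reads. No value in the table was 1, and 3049 values were 2.

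Counts were compared with edgeR 4.0.16 in R 4.3.3 (TMM scaling, default filter, quasi-likelihood test, calls at a Benjamini-Hochberg adjusted p under 0.05 over 607 miRNAs). Arm ratios were compared with limma 3.58.1 on log2 counts with a pseudocount of 1. SDs are between libraries. Ratios within libraries were compared with exact permutation tests (scipy 1.17.1), and hairpins were folded with RNAfold 2.7.2. The edgeR and limma steps were tested on simulated data. Alternatives were other scalings and filters, DESeq2 1.42.0, limma-voom, other pseudocounts and arm minimums, a difference of medians, a replicate block and the removal of each library. The named miRNAs were the 4 members, miR-26a-1-3p, the neighbours in level of the guide arms, the 5 miRNAs most like each guide arm and, from each list, up to 4 members by smallest p. Others were named after their values were seen. The members and lists were chosen with earlier results of these data known.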

Additional observations from a re-analysis of the deposited data

Results flagged for a closer look

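Of 20 sets of 6 libraries examined for a library far from the others, 1 held such a library, where chance gives about 1 in 20. In PZH library 5 the log2 ratio of miR-26a-5p to miR-26a-2-3p was 10.78, and the nearest other PZH library was at 11.08. This gap was 0.674 of the range of the PZH libraries. The library had 15.4 CPM of miR-26a-2-3p, the highest of the 12 libraries, and 27252 CPM of miR-26a-5p, the second lowest.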

How the results depend on the processing

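The 4 members were called in none of the 20 alternatives to the edgeR test. Their log2 fold changes kept their direction, except that miR-26a-5p stood at 0.029 (adjusted p = 0.729) with a filter of 10 CPM in 6 libraries. The alternatives called 94 to 140 of all miRNAs, against 129. The difference in the log2 ratio of miR-26a-5p to miR-26b-5p ranged over -0.17 to -0.094 as each library was left out. The difference in the share of counts held by the guide arms was 0.0237 to 0.187 percentage points as each library was left out, and 0.261 with the other most abundant miRNAs taken out of the total. With both arms at a mean of at least 100 counts, fewer hairpins entered the fit. The ratio of miR-26a-5p to miR-26a-2-3p was then called at the same difference of -0.32 (limma adjusted p = 0.0427). The ratio of miR-26b-5p to miR-26b-3p ranged over -0.035 to 0.068 as each library was left out, below 0 without water library 1 or 4 or PZH library 4 or 6. Arm ratios called numbered 14, against 4 with an arm minimum of 5 counts, 24 with 100 counts, and 3 to 18 as each library was left out (3 to 6 without water library 1, 3, 4 or 5 or PZH library 1, 5 or 6). The cause was not tested. The EZH2-linked list had 0 to 2 members called lower and 0 to 1 higher, and the list of miRNAs lowered in liver cancer had 3 to 8 called lower and 0 to 1 higher. The miR-26a-1-3p values rest on 5 to 51 counts per library.

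No source says that equal replicate numbers pair samples. Same-numbered libraries had correlations of -0.15 to 0.08 after centring on group means, and 1 water library and 0 PZH libraries correlated best with their own number. With the replicate number as a block, 114 miRNAs and 6 arm ratios were called, and miR-26a-5p had a log2 fold change of -0.06. With this replicate block miR-26a-1-3p had -1.03 (adjusted p = 0.0760).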
